A study of Rattus norvegicus with 8 samples.

Results

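The genes described here encode potassium channels that set the resting potential or answer to calcium and sodium, and the HCN pacemaker channels. They were chosen by symbol: Kcnj, Kcnk, Kcnn, Kcnt or Hcn followed by a digit, or Kcnma or Kcnmb, with a summed count of at least 80 over the 8 libraries. Of 43 matching symbols among the 16871 genes of the table, 30 met the minimum: 9 Kcnj, 8 Kcnk, 4 Kcnm, 3 Kcnn and 2 Kcnt genes, and the rest Hcn genes. The lowest members were Kcnj11 with a summed count of 112 and Kcnj1 with 115, and the highest symbols left out were Kcnk5 with 75 and Kcnj5 with 68. All 30 members passed the expression filter and were among the 11372 genes tested.

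Kcnk genes encode the tandem-pore leak channels, which conduct near rest and hold the membrane negative. Kcnj genes encode inward rectifiers, among them the G protein-gated channels opened by GABA-B and adenosine receptors, the strong rectifiers of dendrites and the main potassium channel of astrocytes. The large-conductance (Kcnma1 with Kcnmb beta subunits) and small-conductance (Kcnn) channels open when calcium enters and repolarize the cell after a spike, and Kcnt channels are opened by sodium. HCN channels carry an inward current on hyperpolarization and lower the input resistance of pyramidal cell dendrites. All of these shape how readily a neuron fires.

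BrU-seq was used to measure newly made RNA: bromouridine (BrU) taken up by living cells marks new transcripts, and these are then captured with an antibody and sequenced. The cultures joined cortical and hippocampal neurons of Sprague Dawley rat pups of postnatal day 1 to 2, although the sample titles name hippocampus alone. In every group they received a first treatment of 24 h from day 14 in vitro, a washout of 48 h, and a second treatment of 4 h on day 17, with 2 mM BrU for the last 30 min. Each treatment was water (H) or 1 µM tetrodotoxin (T, TTX, which blocks voltage-gated sodium channels and silences firing). HH cultures had water both times, HT had TTX second, TH had TTX first and TT had it both times, with 2 libraries per group. The comparisons ask what 4 h of silence does to transcription and whether an earlier silence changes it.

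Totals ran from 3489176 to 4959887 counts per library, and members held 0.310% to 0.467% of them. HH replicate 1 and HT replicate 1 stood apart. The summed level of 14 rapid activity genes (Fos, Arc, Npas4 and others) was 734 CPM (the usual CPM unit of counts scaled to the normalised library total) in the former and 227 in the latter, against 123 to 152 in the other 6 libraries. In those 6 the second treatments overlapped. Given water second, HH replicate 2 stood at 129.6 CPM and TH replicates 1 and 2 at 151.7 and 122.6. Given TTX second, HT replicate 2 stood at 144 CPM and TT replicates 1 and 2 at 131.5 and 126.7. All 14 genes were highest in HH replicate 1. Neuronal markers were present throughout, with 705 to 1040 CPM summed over 6 excitatory and 507 to 996 CPM over 6 inhibitory markers, and so were glial ones, with 1230 to 1910 CPM over 8 astrocyte markers. In such mixed cultures fewer cells of a type and less new RNA per cell cannot be told apart.

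No member passed the threshold in any of 7 comparisons (edgeR quasi-likelihood test, Benjamini-Hochberg adjusted p of 0.05), nor did any of the 11372 genes (0%). DESeq2 and limma-voom also called 0 members in each, while DESeq2 called 11 genes, none of them a member, for the second TTX averaged over history. At an unadjusted p under 0.05, HT against HH held 1 member of 30, which was lower (6.49% of all genes, 2.73% lower). TT against TH held 0 (2.64%, 0.923% lower). TH against HH held 1, which was lower (4.08%, 2.02% lower), and so did TT against HT (2.35%, 1.06% lower). The second TTX averaged over history gave 1, which was lower (6.94%, 2.59% lower), and the history averaged over the second treatment 5, of which 4 were lower (5.75%, 2.74% lower). The interaction gave 1, which was higher (1.64%, 0.906% lower). Log2 changes below 0 were found for 18 of 30 members when HT was set against HH (49.8% of all genes) and for 19 when TT was set against TH (49.1%). For TH less HH there were 19 (49.8%), for TT less HT 22 (49.9%) and for the interaction term 15 (48.8%). Members are therefore described by their levels in each library. A count is not scaled to gene length, so that levels are compared between libraries and not between genes.

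**Figure D1:**
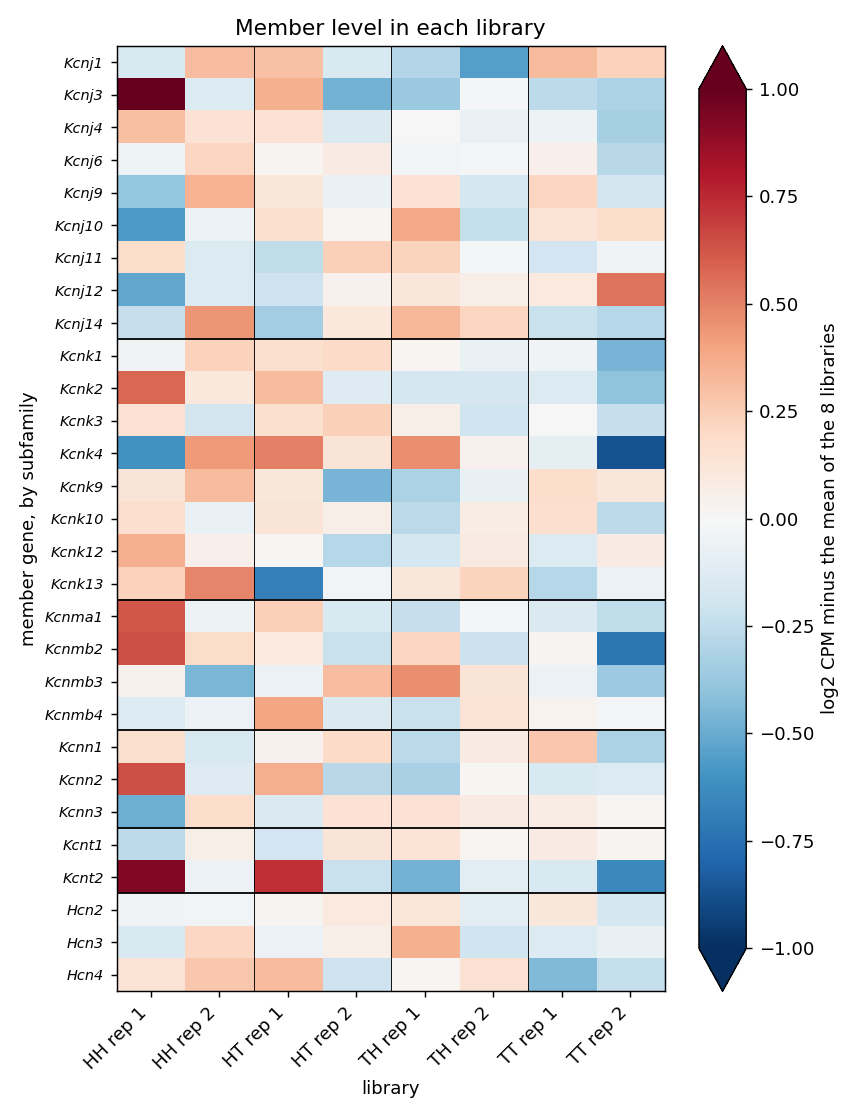
Level of the members described (rows, by subfamily) in the 8 libraries (columns), as log2 CPM minus the mean of the 8 libraries, with the colour scale ending at 1 in either direction. Kcnj3 and Kcnt2 are highest in HH replicate 1 and next in HT replicate 1, while Hcn2 varies by 1.23-fold over all libraries.

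Several members differed widely between replicates of the same group. Kcnj3, a subunit of the G protein-gated inward rectifier, stood at 535 and 210 CPM in HH, 295 and 165 in HT, 178 and 228 in TH, and 192 and 184 in TT (replicates 1 and 2). HH replicate 1 was 2.55-fold above its own replicate and HT replicate 1 1.79-fold above its own, while the other 6 libraries lay between 165 and 228 CPM. For the sodium-activated channel gene Kcnt2 the levels were 394 and 198 CPM in HH, 344 and 177 in HT, 149 and 191 in TH, and 186 and 132 in TT. Here HT replicate 1 was nearly as high as HH replicate 1, and its ratio to HT replicate 2 was 1.95.

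Calcium-activated channel genes showed the pattern too. Kcnma1, the pore of the large-conductance channel, stood at 1974 and 1240 CPM in HH, 1516 and 1159 in HT, 1097 and 1266 in TH, and 1162 and 1078 in TT. Kcnn2, a small-conductance channel of hippocampal and cortical neurons, stood at 326 and 191 CPM in HH, 270 and 172 in HT, 167 and 211 in TH, and 188 and 190 in TT. In both genes every library other than HH replicate 1, silenced first or not, lay below HT replicate 1. Those libraries ranged from 1078 to 1266 CPM in Kcnma1 and from 167 to 211 in Kcnn2. HH replicate 1 followed by HT replicate 1 was the order in 7 of the 30 members, Kcnk2 and Kcnj4 among them, against 7.04% of all tested genes. Kcnj4, a strong rectifier, showed it weakly, with 65.4 and 58.7 CPM in HH and 58.7 and 48.0 in HT. Of the members, 9 were highest in HH replicate 1 (21.6% of all tested genes) and 5 were lowest there (22.3%). HH replicate 1 was at least 1.5 times HH replicate 2 in 5 members (7.67%), and HH replicate 2 at least 1.5 times HH replicate 1 in 4 (10.7%).

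**Figure D2:**
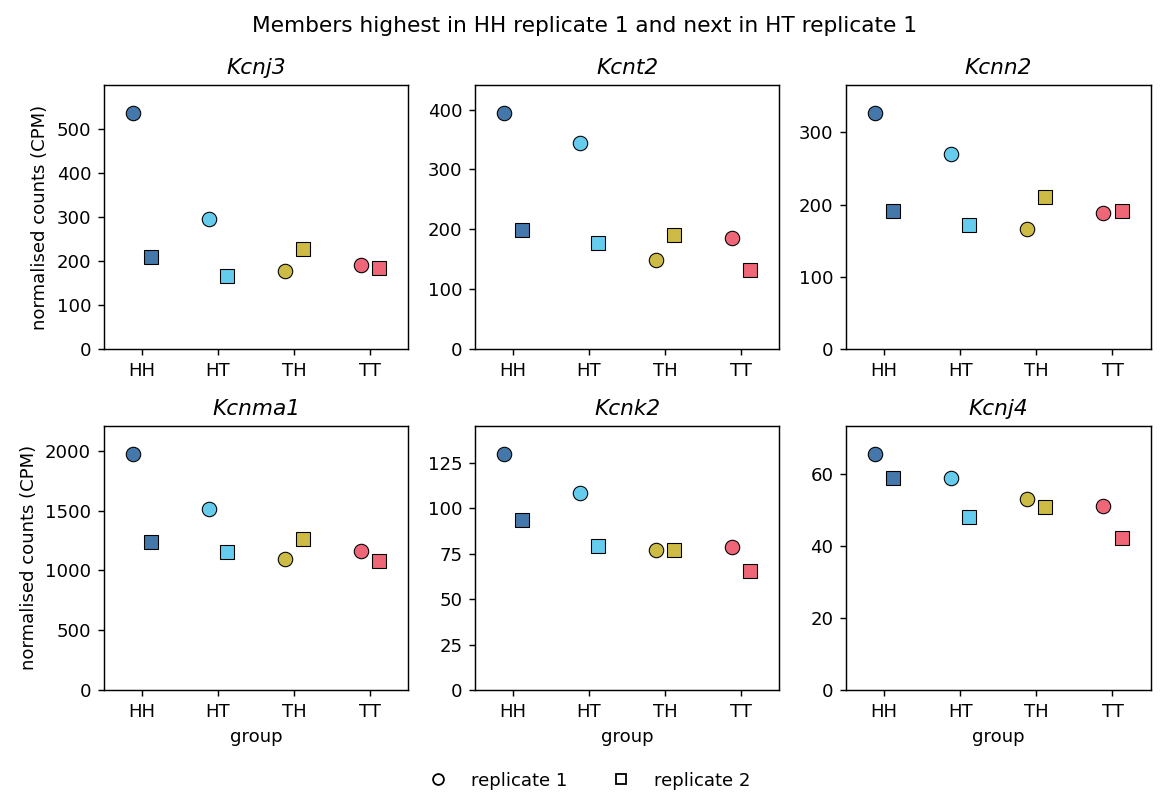
Normalised counts (CPM, linear axis from 0) of 6 members by group, circles for replicate 1 and squares for replicate 2. In each panel the circle of HH is highest and the circle of HT next, and in Kcnj3 the other 6 libraries lie between 165 and 228 CPM.

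Other members went the opposite way in HH replicate 1. Kcnn3, a small-conductance channel gene closely related to Kcnn2, stood at 113 and 179 CPM in HH, 143 and 175 in HT, 176 and 168 in TH, and 167 and 161 in TT. HH replicate 1 was its lowest library and HT replicate 1 the next lowest, so that Kcnn2 and Kcnn3 were ordered oppositely in these 2 libraries. Kcnj10, the inward rectifier of astrocytes and oligodendrocytes, stood at 27.8 and 39.9 CPM in HH, 46.3 and 42.1 in HT, 54.1 and 35.0 in TH, and 45.6 and 46.8 in TT. It was lowest in HH replicate 1, while the summed level of the 8 astrocyte markers there was 1622 CPM, the third highest of the 8 libraries. These markers did not move together. Slc1a3 (595 CPM) and Slc1a2 (434) were second highest in HH replicate 1. Gfap (337 CPM), Gja1 (65.4), Fgfr3 (17.9) and Aldh1l1 (8.02) were lowest there, as Kcnj10 was. Aqp4 (165 CPM) was second lowest there, and Gjb6 had no count in 4 libraries. The 10 oligodendrocyte lineage markers summed to 496 CPM in HH replicate 1, the lowest of the 8. Their part in the level of Kcnj10 was not tested.

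The effect of earlier silencing, TH and TT against HH and HT, gave the largest share of members under an unadjusted p of 0.05. In this average 25 of 30 members lay below 0 (50% of all tested genes), with a median log2 fold change of -0.12 against 0.00 for all genes. That median was -0.227 without TT replicate 1 and -0.075 without TT replicate 2. The 5 members were Kcnk2, Kcnt2, Kcnk1 and Kcnma1, lower after earlier silencing, and Kcnj12, higher. The log2 fold change (± SE, 4 libraries on each side) was -0.76 ± 0.30 for Kcnt2 (edgeR adjusted p = 0.814) and -0.35 ± 0.16 for Kcnma1 (edgeR adjusted p = 0.814). Kcnj3 stood at -0.58 ± 0.32 and Kcnn2 at -0.34 ± 0.20.

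Most of these values were nearer 0 without the 2 libraries that stood apart, and Kcnk1 was an exception. Kcnk1 stood at -0.28 ± 0.12 with all libraries (edgeR adjusted p = 0.814) and at -0.353 without them. With HH replicate 1 and HT replicate 1 both left out, Kcnt2 stood at -0.19 and Kcnma1 at -0.059. Kcnj3 (0.069) and Kcnn2 (0.062) turned direction. Kcnn3, at 0.13 with all libraries, turned to -0.080. With HH replicate 2 left out instead, which leaves 1 library in HH, Kcnk2 was -0.57. Of the 30 members 22 lay below 0 with the 6 libraries, with a median of -0.073. That fit has 1 library each in HH and HT, and takes their spread from the other groups.

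**Figure D3:**
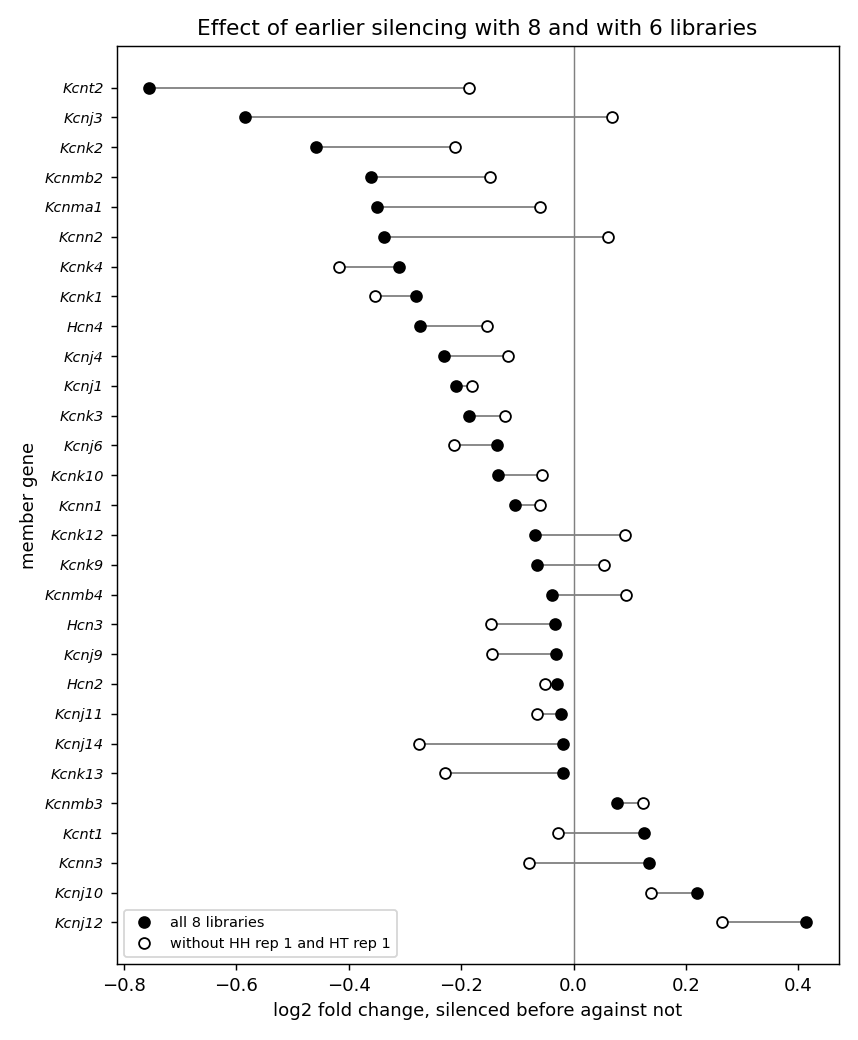
Log2 fold change of each member described between cultures silenced first (TH and TT) and not (HH and HT), from all 8 libraries (filled) and without HH replicate 1 and HT replicate 1 (open). Kcnj3 moves from -0.58 to 0.069, while Kcnj12 stays the highest, at 0.41 and 0.26.

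A pair of members separated the histories completely. Kcnk2, a leak channel opened by stretch, arachidonic acid and volatile anaesthetics, stood at 130 and 93.6 CPM in HH, 108 and 79.5 in HT, 77.1 and 77.3 in TH, and 78.7 and 65.5 in TT. All 4 libraries of silenced cultures lay below the 4 others, by a narrow margin of 78.7 against 79.5 CPM. The means were 74.7 ± 6.13 CPM after silencing and 103 ± 21.5 without (SD, n = 4), and the log2 fold change was -0.46 ± 0.13 (edgeR adjusted p = 0.814). Leaving out HH replicate 1 and HT replicate 1, the highest libraries of this gene, could undo this order only through rescaling. The change was then -0.21. Kcnk2 was also the member of smallest p in TH against HH (-0.53 ± 0.19, edgeR adjusted p = 0.891).

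Kcnj12, a strong inward rectifier that steadies the resting potential, went the other way. It stood at 14.5 and 19.0 CPM in HH, 18.1 and 21.6 in HT, 22.7 and 21.9 in TH, and 22.4 and 30.7 in TT. Every library of a silenced culture was above every other one, the nearest being 21.9 and 21.6 CPM. Means were 24.4 ± 4.20 CPM against 18.3 ± 2.95 (SD, n = 4), with a log2 fold change of 0.41 ± 0.16 (edgeR adjusted p = 0.814), and 0.26 without the 2 libraries that stood apart. TT replicate 2 was the highest, and without it the change was 0.29. Non-overlap of this kind occurred in 1.17% of all tested genes in the lower and 1.73% in the higher direction, against 1 of 30 members in each.

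**Figure D4:**
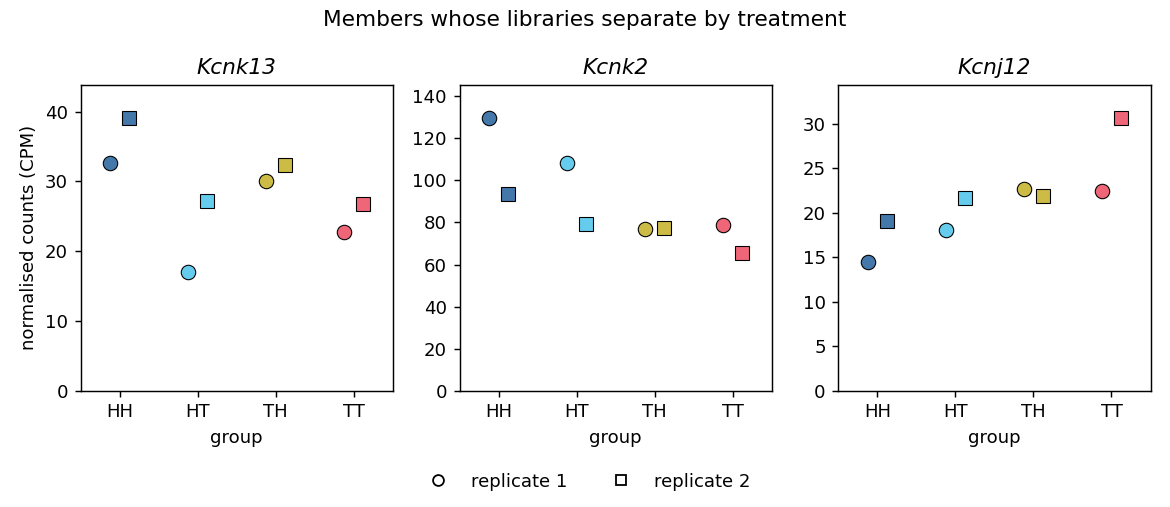
Normalised counts (CPM, linear axis from 0) of Kcnk13, Kcnk2 and Kcnj12 by group, circles for replicate 1 and squares for replicate 2. Kcnk13 lies at 17.1 to 27.2 CPM in the 4 libraries given the second TTX and at 30.1 to 39.1 in the other 4, and Kcnk2 and Kcnj12 separate TH and TT from HH and HT.

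For the second TTX, HT and TT against HH and TH, 19 of 30 members lay below 0 (50.3% of all tested genes), with a median of -0.10 against -0.001 for all genes. Without HH replicate 2 that median was -0.016, without TT replicate 2 -0.018, without HH replicate 1 -0.041 and without TH replicate 1 -0.063. Kcnk13, a leak channel that in brain is known chiefly from microglia, was the member whose libraries separated. It stood at 32.7 and 39.1 CPM in HH, 17.1 and 27.2 in HT, 30.1 and 32.4 in TH, and 22.7 and 26.7 in TT. All 4 TTX libraries were below all 4 vehicle libraries, in both histories. The means were 23.4 ± 4.69 CPM with TTX and 33.6 ± 3.87 without (SD, n = 4), and the log2 fold change was -0.52 ± 0.15 (edgeR adjusted p = 0.401). It was -0.43 without HH replicate 1 and HT replicate 1, and the adjusted p ran from 0.207 to 0.864 over its alternatives. In HT against HH it stood at -0.71 ± 0.22 (edgeR adjusted p = 0.680). Libraries separated in 1.64% of all tested genes in the lower and 2.69% in the higher direction, against 1 and 0 of 30 members.

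Microglial markers were near the floor of these libraries. The 7 markers summed to 9.05 to 14.3 CPM with TTX and 9.25 to 14.4 without, P2ry12 had no count in 5 libraries and Aif1 none in 4. Cx3cr1, the one with the most counts, stood at 4.77 to 8.72 CPM with TTX and 6.07 to 6.79 without. Other cell type lists did separate the second treatments. The 10 oligodendrocyte lineage markers summed to 694 to 840 CPM with TTX and 496 to 669 without. The 6 markers of dividing cells summed to 150 to 193 CPM against 107 to 127, and the 6 inhibitory markers to 507 to 616 CPM against 635 to 996. The inhibitory markers did not move together. The second-TTX log2 change was -0.579 for Gad1, -0.435 for Gad2 and -0.339 for Dlx2. It was -0.049 for Slc32a1, -0.001 for Lhx6 and 0.006 for Dlx1. The part of these lists in the level of Kcnk13 was not tested.

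The 250 bases before the RefSeq start are shown for some of the members described above. They come from those found by symbol in the promoter table (build GRCr8), which held 18 of the 30. Kcnj12 and Kcnj3 were not found, and the windows of Kcnn2 and Kcnj4 were found but are not printed. Kcnk13 lies at chr6:124971559-124971808 (plus strand) and Kcnk2 at chr13:103438643-103438892 (minus strand), from the members that separated by treatment. Kcnt2 lies at chr13:54215057-54215306 and Kcnma1 at chr15:351675-351924 (both plus strand), from those highest in HH replicate 1. Each runs 5′ to 3′ toward the start, and capitals mark GC boxes (GGGCGG on either strand) and cores of the cAMP response element (TGACG on either strand).
Kcnk13: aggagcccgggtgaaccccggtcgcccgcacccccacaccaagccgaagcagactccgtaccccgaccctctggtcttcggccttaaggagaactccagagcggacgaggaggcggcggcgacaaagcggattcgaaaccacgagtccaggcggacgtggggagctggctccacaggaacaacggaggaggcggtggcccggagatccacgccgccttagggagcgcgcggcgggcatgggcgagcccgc
Kcnk2: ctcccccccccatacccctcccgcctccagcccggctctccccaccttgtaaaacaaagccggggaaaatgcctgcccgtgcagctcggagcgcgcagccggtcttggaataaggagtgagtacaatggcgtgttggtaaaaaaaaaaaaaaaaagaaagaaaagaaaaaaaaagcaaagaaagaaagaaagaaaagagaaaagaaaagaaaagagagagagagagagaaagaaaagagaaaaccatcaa
Kcnt2: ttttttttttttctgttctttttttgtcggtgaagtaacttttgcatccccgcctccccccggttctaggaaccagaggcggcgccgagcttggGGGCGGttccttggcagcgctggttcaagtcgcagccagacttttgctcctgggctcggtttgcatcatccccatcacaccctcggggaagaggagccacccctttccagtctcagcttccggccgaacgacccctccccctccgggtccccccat
Kcnma1: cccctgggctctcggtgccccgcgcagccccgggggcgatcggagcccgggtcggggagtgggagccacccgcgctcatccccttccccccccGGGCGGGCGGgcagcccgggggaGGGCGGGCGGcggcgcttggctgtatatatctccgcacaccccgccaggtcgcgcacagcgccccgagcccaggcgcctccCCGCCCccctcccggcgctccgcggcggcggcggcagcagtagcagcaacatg
Kcnma1 had 5 GC boxes, some of which overlap, and Kcnt2 had 1. Neither motif was found in the windows of Kcnk13 and Kcnk2. The full cAMP response element TGACGTCA, the site of activity-regulated CREB, was in 0 of the 18 member windows and in 1.59% of the 33469 windows in the table. The core was in Kcnj4, Kcnn2 and Kcnt1, and in 18.2% of all windows, and the AP-1 site TGANTCA was in none of the 18 and in 6.34%. GC boxes were in 8 of the 18 and in 30.5%. GC content of the printed windows ran from 45.6% in Kcnk2, which has a long run rich in A and G, to 79.6% in Kcnma1. A match in these letters is a description and not a binding site.

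Inward rectifiers apart from those above varied less clearly with treatment. Kcnj14, a strong rectifier, stood at 10.2 and 16.4 CPM in HH, 9.31 and 12.9 in HT, 15.2 and 14.0 in TH, and 10.2 and 9.76 in TT. Its second-TTX value was -0.41 ± 0.19 (edgeR adjusted p = 0.726) and its value in TT against TH -0.54 ± 0.26 (adjusted p = 1.00). HH replicate 1 kept its libraries from separating: without that library all those given TTX were lower, as in 3.7% of all genes tested in that setting. Kcnj1, best known as a renal channel, had the smallest p of the members in TT against TH, at 0.80 ± 0.39 (edgeR adjusted p = 1.00), with 2.76 and 2.23 CPM in TH and 4.48 and 4.18 in TT. It stood at 3.08 and 4.43 CPM in HH and 4.40 and 3.09 in HT, and its summed count of 115 makes it one of the least counted. Kcnj6, a G protein-gated subunit that pairs with the product of Kcnj3, stood at 311 and 373 CPM in HH, 327 and 341 in HT, 316 and 317 in TH, and 333 and 265 in TT. HH replicate 1, the highest library of Kcnj3, was the second lowest of Kcnj6. Kcnj9, the third such subunit in brain, was lowest in HH replicate 1, at 13.6 CPM, against 15.7 to 23.0 elsewhere. Its span overlaps that of Igsf8 in the RefSeq table, so that reads of these genes may not be told apart. Kcnj11, the pore of the ATP-sensitive channel, ranged from 2.85 to 4.21 CPM.

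All 8 leak channel genes had a history average below 0 (50% of all tested genes), with a median of -0.16. Those of Kcnk13 (-0.018 ± 0.155), Kcnk9 (-0.065 ± 0.146) and Kcnk12 (-0.069 ± 0.115) were nearer 0 than their SE. The per-library median position of the 8 ran from -0.25 to -0.013 in silenced cultures and from 0.015 to 0.17 in the others. The histories thus did not overlap, by a narrow margin, and how often other sets of genes do so was not counted. Without HH replicate 1 and HT replicate 1, 6 of the 8 lay below 0 and the median was -0.17. The subfamily was compared without a test, since its genes were chosen together. Kcnk1, a weakly rectifying leak channel, stood at 35.8 and 43.3 CPM in HH, 41.1 and 42.1 in HT, 37.3 and 35.0 in TH, and 35.9 and 26.5 in TT. It had the smallest p of the members in TT against HT, at -0.42 ± 0.18 (edgeR adjusted p = 1.00). TT replicate 2 was its lowest library.

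The acid-sensitive leak channel gene Kcnk9 had the smallest p of the interaction among members, 0.71 ± 0.29 (edgeR adjusted p = 1.00). It stood at 29.9 and 34.2 CPM in HH, 29.5 and 19.7 in HT, 21.8 and 25.9 in TH, and 30.9 and 29.5 in TT. Cultures given TTX once, first or second, thus included its 3 lowest libraries, while HT replicate 1, the other such library, was level with TT replicate 2 and HH replicate 1. Its values were -0.38 ± 0.21 in HT against HH and -0.42 ± 0.21 in TH against HH. Kcnk3, its nearest relative among the members, ranged from 29.7 to 41.3 CPM without such an order. Kcnk4, a mechanosensitive leak channel, had few counts and stood at 3.70 and 8.09 CPM in HH, 8.54 and 6.46 in HT, 8.29 and 6.07 in TH, and 5.48 and 2.99 in TT. TT was lower than HT in both replicates, at -0.86 ± 0.42 (edgeR adjusted p = 1.00), and HH replicate 1 was as low as TT. Kcnk12, the close relative of Kcnk13, stood at -0.34 ± 0.16 in HT against HH (edgeR adjusted p = 0.779), with 125 and 101 CPM in HH and 97.8 and 79.7 in HT. In TH and TT its libraries overlapped, at 86.2 and 103 CPM and at 88.4 and 103 CPM. Kcnk10, related to Kcnk2, stood at 206 and 175 CPM in HH, 201 and 191 in HT, 152 and 193 in TH, and 206 and 153 in TT, and its groups overlapped throughout.

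Among the beta subunits of the large-conductance channel, Kcnmb2, which makes the channel inactivate, stood at 22.5 and 16.2 CPM in HH, 15.3 and 12.1 in HT, 16.6 and 12.1 in TH, and 14.5 and 8.37 in TT. Its second-TTX value was -0.41 ± 0.21 (edgeR adjusted p = 0.758). TH replicate 2 lay among the TTX libraries, and without it all libraries given TTX were lower, as in 4.84% of all genes tested in that setting. Kcnmb4, the main beta subunit of neurons, ranged from 60.2 to 92.9 CPM and was highest in HT replicate 1. Kcnmb3 stood at -0.89 ± 0.42 in the interaction (edgeR adjusted p = 1.00), with 8.33 and 5.74 CPM in HH, 7.76 and 10.1 in HT, 11.3 and 8.90 in TH, and 7.72 and 6.17 in TT. HT and TH were thus higher than TT and HH replicate 2, but HT replicate 1 was level with TT replicate 1 and below HH replicate 1. The pore gene Kcnma1 had no such order.

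Of the other small-conductance and sodium-activated channels, Kcnn1 ranged from 6.97 to 10.7 CPM and Kcnt1 from 34.9 to 46.1 CPM. Kcnt1 was lowest in HH replicate 1 and next lowest in HT replicate 1, where Kcnt2 was highest. Hcn4, the slow pacemaker subunit of heart and thalamus, stood at 21.9 and 24.0 CPM in HH, 24.8 and 17.1 in HT, 20.2 and 22.1 in TH, and 14.5 and 16.7 in TT. TT against TH gave -0.44 ± 0.22 (edgeR adjusted p = 1.00), and 3 of the 4 TTX libraries were below all vehicle libraries, HT replicate 1 being the exception and the highest of all. Hcn2, which is widespread in brain, ranged from 29.9 to 36.7 CPM and Hcn3 from 10.7 to 16.0 CPM. The span of Hcn3 overlaps that of Pklr in the RefSeq table. Ratios of HH replicate 1 to HH replicate 2 were 0.996 for Hcn2, 0.774 for Hcn3 and 0.913 for Hcn4.

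**Figure D5:**
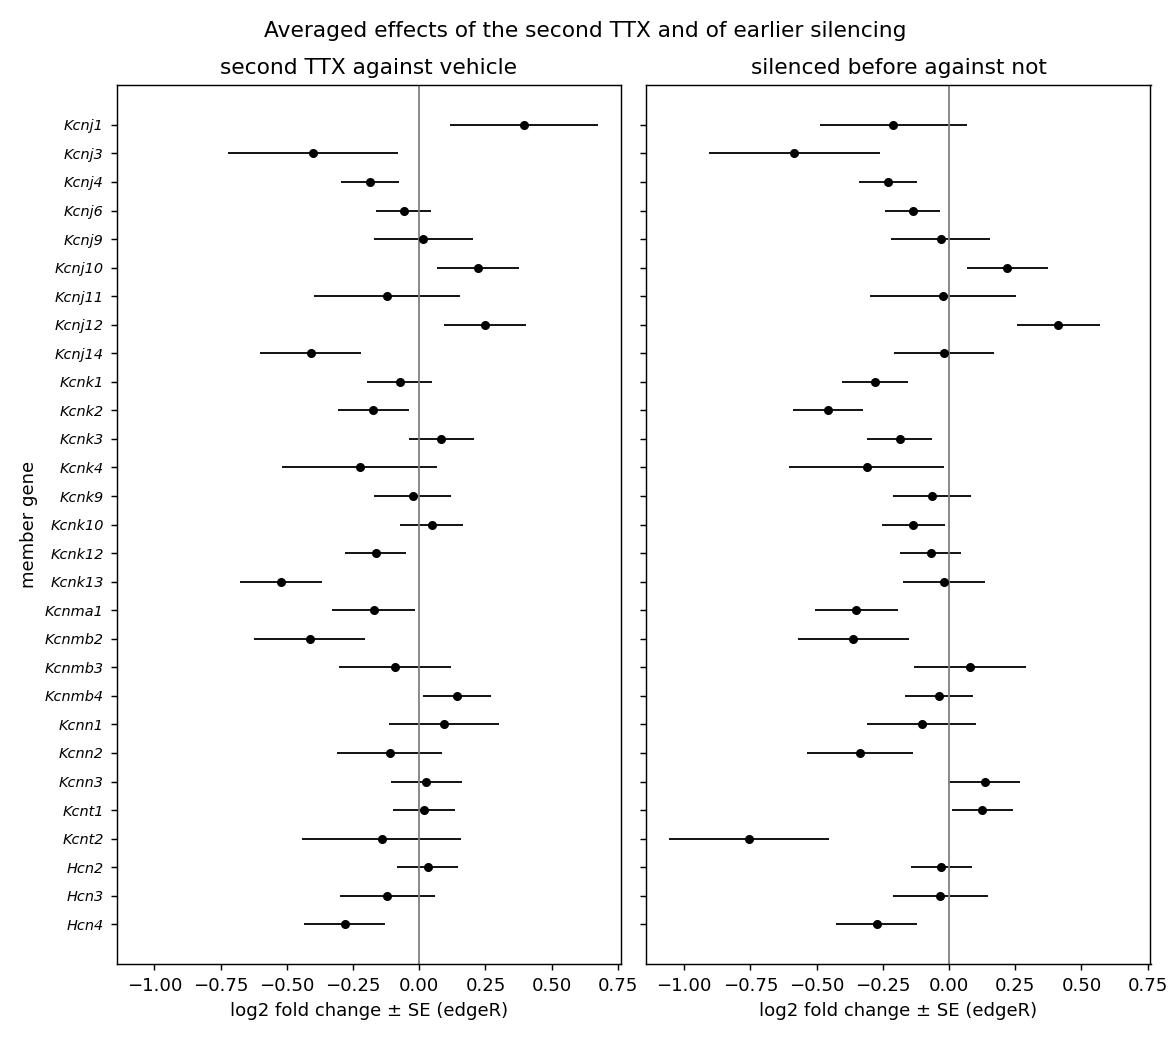
Log2 fold change ± SE (edgeR, 8 libraries) of each member described for the second TTX averaged over history (left) and for earlier silencing averaged over the second treatment (right). Kcnk13 is lowest on the left at -0.52, Kcnt2 lowest on the right at -0.76 and Kcnj12 highest there at 0.41, and no member passed the adjusted threshold.

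By potassium channel subfamily the medians were small. For the second TTX they were -0.059 for Kcnj, -0.12 for Kcnk, -0.13 for Kcnm, 0.026 for Kcnn and -0.062 for Kcnt. For earlier silencing they were -0.031 for Kcnj, -0.19 for Kcnm, -0.10 for Kcnn and -0.32 for Kcnt, beside the -0.16 of Kcnk. Of these, 7 of 9 Kcnj, 3 of 4 Kcnm, 2 of 3 Kcnn and 1 of 2 Kcnt genes lay below 0. In the per-library medians of these 4 subfamilies the histories overlapped, as did the second treatments in these and in Kcnk. Without HH replicate 1 and HT replicate 1 the medians for earlier silencing were 0.017 for Kcnm, -0.107 for Kcnt and -0.06 for Kcnn. That of Kcnj was -0.116, farther from 0 than with all libraries, and that of Kcnk -0.167. The Kcnk median for the second TTX was -0.008 without HH replicate 2, -0.016 without TT replicate 2 and -0.216 without HT replicate 1, and that for earlier silencing -0.252 without TT replicate 1.

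Partners and regulators of these channels were taken from a list of 34 genes, of which 29 were tested. They include the HCN partner Pex5l, sulfonylurea receptors, gamma subunits of the large-conductance channel, calmodulins, and receptors and regulators that act on G protein-gated rectifiers. None passed in either average by edgeR, DESeq2 or limma-voom. At an unadjusted p under 0.05, 2 were higher and 0 lower for the second TTX (6.94% of all genes), and 1 higher and 1 lower for earlier silencing (5.75%). The median was -0.057 for the second TTX and -0.092 for earlier silencing. Flna, a filamin that binds HCN channels, stood at 75.9 and 90.8 CPM in HH, 101 and 145 in HT, 82.0 and 87.2 in TH, and 111 and 102 in TT. All 4 TTX libraries were higher, as in 2.69% of all tested genes, at 0.44 ± 0.12 (edgeR adjusted p = 0.345). Drd2, a dopamine receptor coupled to these rectifiers, stood at 0.36 ± 0.13 for the second TTX (edgeR adjusted p = 0.576). Chrm2 (-0.83 ± 0.41), Kctd8 (-0.24 ± 0.13) and Kctd16 (-0.26 ± 0.15) had the next smallest p. Chrm2 had few counts, from 0.281 CPM in HT replicate 2 to 3.70 in HH replicate 1. Its change ran from -1.902 to -0.444 over its alternatives. For earlier silencing, Adora1, the inhibitory adenosine receptor, stood at -0.29 ± 0.12, the delta opioid receptor gene Oprd1 at 0.46 ± 0.20 and Rgs7, which speeds closure of the rectifiers, at -0.41 ± 0.19 (edgeR adjusted p = 0.814 for each). Rgs7 had the order of Kcnj3, with 1158 CPM in HH replicate 1, 890 in HT replicate 1 and 560 to 686 elsewhere, and without both libraries its change was -0.027. Oprd1 was lowest in the same libraries, at 11.4 CPM in each, against 15.4 to 26.8 elsewhere. Its change went down to 0.181 over its alternatives.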

How the data were processed

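Nascent RNA of 8 libraries was analysed. The deposited table holds raw whole-number read counts by gene symbol. The submitters' processing notes list FastQC, Bowtie2, TopHat2, featureCounts and the rat build rn6. Versions, annotation, strand setting and treatment of introns: not given in the sources used here. Without strand, antisense reads cannot be told apart, and leaving introns out would lower counts of long genes in nascent RNA. A column was assigned to the sample whose description starts with its number, which left 2 columns with no sample, unused. The labels name no batch. They also do not call replicates separate cultures or animals, so that a p-value reflects spread among libraries that may be technical.

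edgeR 4.0.16 (R 4.3.3) was run on the counts: expression filter (11372 of 16871 genes, 67.4%), TMM scaling, a single model with a mean for each of the 4 groups (residual degrees of freedom: 4), and robust quasi-likelihood tests, adjusted over all tested genes. SE was computed as the size of the log2 change divided by the root of F, and rests on the spread within all 4 groups. Log2 CPM used a prior count of 2. DESeq2 1.42.0, limma 3.58.1, other scaling, no filter, left-out libraries and fits of the compared groups alone were alternatives. The fit was also run on simulated counts with the same spread for every gene and added log2 changes of 1 and 2. Most member changes were smaller, and no simulated library stood apart, so that this run does not bear on such cases. Members and lists were chosen with earlier results of these data known. 1 member is not reported here by name or value, though counts over all members include it. Every other member could be named. Values in each library were given for the 3 of smallest p per comparison, those whose libraries separated and the most counted per subfamily. Log2 changes were given for the partners of smallest p, 5 in the second-TTX and 3 in the history average. Others were chosen after their values were seen. Promoter windows and overlaps come from RefSeq (GRCr8), figures from matplotlib 3.10.9.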

Additional observations from a re-analysis of the deposited data

How the results depend on the processing

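Over 557 settings of 39 single-gene values, 546 kept direction and side of the threshold, 10 turned direction and 1 came to pass. The value that passed was Kcnk2 for earlier silencing without HH replicate 2 (-0.568). When 1 library was left out, members were called only without HH replicate 2, in TH against HH and for earlier silencing. That fit has 1 library in HH, and nearly all of the genes it called were not members. Without HH replicate 1 the second-TTX value turned to 0.012 for Kcnj3, 0.144 for Kcnt2, 0.106 for Kcnn2 and 0.015 for Kcnma1, and the history value of Kcnn3 to -0.012. Without HT replicate 2 the second-TTX value turned to 0.055 for Kcnt2 and 0.029 for Kcnn2. Without HH replicate 1 and HT replicate 1 the history values were 0.069 for Kcnj3, 0.062 for Kcnn2 and -0.080 for Kcnn3, and 3 members lay lower without overlap for the second TTX (Hcn4, Kcnj14, Kcnk13; 5.75% of all genes tested) and 3 for earlier silencing (Kcnj6, Kcnk1, Kcnk2; 6.81%).

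Leaving out 1 library moved the genes called to 0 to 39 in HT against HH, 0 to 1 in TT against TH, 0 to 121 in TH against HH, 0 to 8 for the second TTX, 0 to 104 for earlier silencing and 0 to 2 in the interaction, the highest without HH replicate 2 except in TT against TH (without TH replicate 2). For the second TTX there were 16 without the low-count filter and 11 with DESeq2. With 1 library left out, members lower without overlap ran from 1 to 2 for the second TTX (2.43% to 4.84% of all genes tested) and 1 to 3 for earlier silencing (1.7% to 3.97%), those higher from 0 to 1 for the second TTX (3.55% to 6.03%), the members' second-TTX median from -0.115 to -0.016 and the members' history median from -0.227 to -0.075. Over single left-out libraries the second-TTX values reached -0.666 for Kcnj3, -0.423 for Kcnt2, -0.292 for Kcnn2 and -0.322 for Kcnma1 at the other end, and the history value of Kcnn3 0.32. The cause was not tested. Apart from rescaling, leaving out libraries can add members without overlap but cannot remove any. Fits of the compared groups alone were made for the 4 pairwise comparisons. The labels' replicate numbers do not say what they pair, and deviations of same-numbered replicates correlated at -0.066 to 0.447, the highest for HH with HT. With a replicate block 0 members and 0 genes were called in every comparison. With 2 libraries per group and members of few counts, small differences were not detectable.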

Other observations

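The 13 symbols of the same families under the count minimum had summed counts over 8 libraries of 75 for Kcnk5, 68 for Kcnj5, 64 for Kcnn4, 43 for Kcnk18, 41 for Kcnj2, 20 for Kcnk6, 16 for Kcnj16, 13 for Kcnmb1, 8 for Kcnj15, 4 for Kcnk15, 3 for Kcnj8 and 2 each for Kcnj13 and Kcnk16.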
